A study of Mus musculus with 4 samples.

Results

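Platelet-derived growth factors (PDGFs) and vascular endothelial growth factors (VEGFs) are related secreted dimers that bind receptor tyrosine kinases. PDGF-A, PDGF-B and PDGF-C chains signal through the receptors Pdgfra and Pdgfrb, which drive growth and migration of mesenchymal cells, pericytes and primitive endoderm. VEGF-C and VEGF-B signal through the receptors Flt4 and Flt1, while Kdr is the main signalling receptor of endothelial cells and their mesodermal precursors. The 9 genes described here are the ligands Pdgfa, Pdgfb, Pdgfc, Vegfb and Vegfc and the receptors Pdgfra, Pdgfrb, Flt1 and Kdr, out of 20716 genes in the data. They were chosen by symbol, and all RefSeq entries of a symbol were summed.

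The values are ribosome footprints, the mRNA fragments that ribosomes shield from nuclease, and they rise both with mRNA amount and with ribosome density on it. There were 4 libraries without replicates, all from mouse cells of strain C57BL/6: Mettl3-KO embryoid bodies (KO EBs), wild-type embryoid bodies (WT EBs), Mettl3-KO embryonic stem cells (KO ESCs) and wild-type embryonic stem cells (WT ESCs). Mettl3 encodes the enzyme that places N6-methyladenosine (m6A) on mRNA, and the labels say neither how its gene was altered nor how many clones were used. The ESCs were held in the naive state by LIF with the GSK3 inhibitor CHIR99021 and the MEK inhibitor PD0325901 in serum-free medium, and the EBs were differentiating aggregates grown without them in serum for 8 to 21 days.

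Reads on coding sequence numbered 4075850 in KO EBs, 4234361 in WT EBs, 11455539 in KO ESCs and 8570204 in WT ESCs. All values below are the authors' normalised counts, in which 1 read was worth 1.49, 1.56, 0.533 and 0.778 in those libraries. Mettl3 itself stood at 327 in KO EBs against 429 in WT EBs, 1.31-fold lower, and at 298 in KO ESCs against 563 in WT ESCs, 1.89-fold lower. A count over the full coding region does not show whether a short piece of it is missing, so the groups carry the names of their labels. With 1 library a group, genotype cannot be told apart from differences between cell lines, cultures or libraries. Likewise, in mixed aggregates fewer cells of a type and fewer footprints per cell cannot be told apart. Brackets after a fold give its 95% exact interval between 2 libraries, which covers counting error only.

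Of the 9 genes, 6 were measured well enough to compare, averaging 25 or more across the libraries: Pdgfa, Pdgfb, Pdgfc, Vegfc, Flt1 and Kdr. Neither PDGF receptor had a single read in any library, and Vegfb had 13 reads in all. These 3 genes are the ones that the table lists under 2 RefSeq entries each. Both Pdgfra entries (NM_001083316 and NM_011058) have the same 3270 coding bases, so that 0 bases belong to one entry alone. For Pdgfrb, NM_001146268 has 3 bases of 3300 to itself and NM_008809 has 0 of 3297. Vegfb has 44 of 567 bases private to NM_001185164, which held all its 13 reads, and 101 of 624 private to NM_011697, which held 0. Each of the 6 measured genes has 1 entry, and 100% of its coding bases lie in no other entry.

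The same loss was found across the table. Of 1197 genes with 2 or more entries and 0 private bases, 1195 had no read, against 3464 of 16454 genes with 1 entry, or 99.8% and 21.1%. Pdgfra is among the genes with 0 private bases. Pdgfrb belongs to the class with 1 to 99 private bases, of which 839 of 1114 genes, or 75.3%, had no read, and the 3 private bases are its whole share. The table's own entry for ambiguous reads, those lying over more than 1 entry, held 8.62% of its reads in KO EBs, 9.74% in WT EBs, 10.5% in KO ESCs and 8.71% in WT ESCs. The zero of Pdgfra is therefore no measure of its footprints in any group, and that of Pdgfrb speaks at most for reads over 3 bases. The floor of 3 reads that a count of 0 allows (4.48 in KO EBs, 4.68 in WT EBs, 1.60 in KO ESCs and 2.34 in WT ESCs) limits only reads that could be assigned. Of the 28-base windows of the 12 entries, 0 had a further exact copy on the reference chromosomes.

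**Figure D1:**
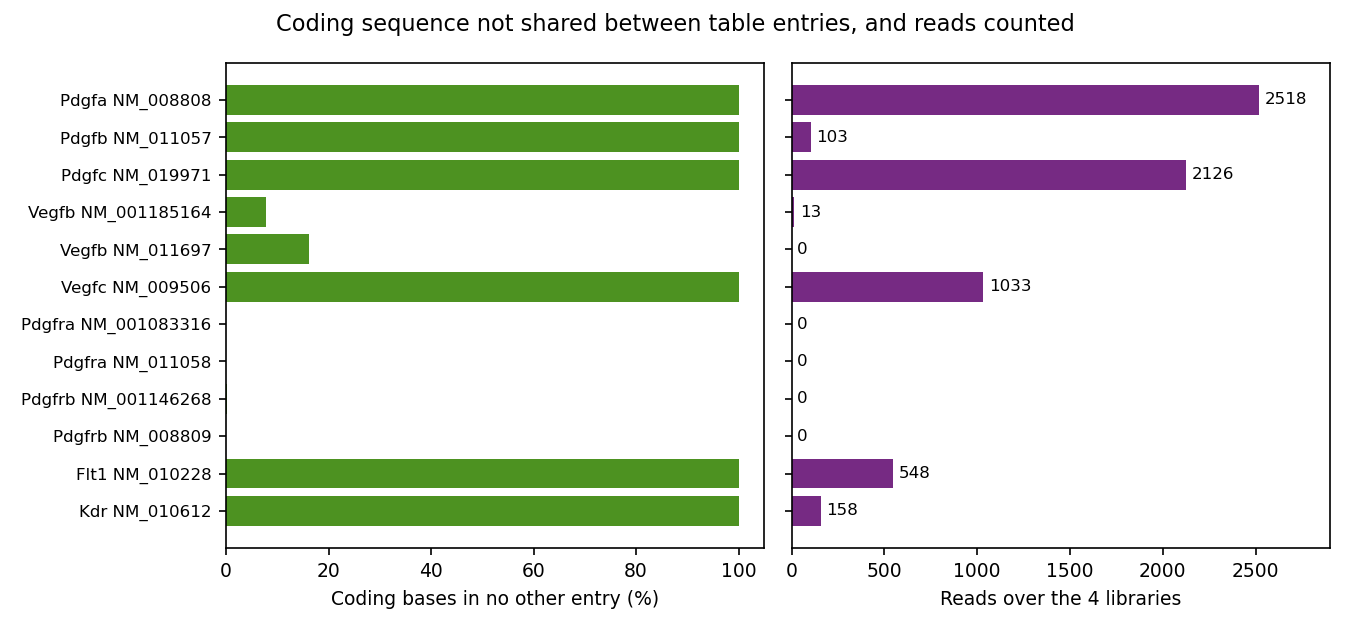
Share of coding bases found in no other table entry (left, percent) and reads summed over the 4 libraries (right) for each RefSeq entry of the 9 genes. The Pdgfra and Pdgfrb entries share nearly all their bases and hold 0 reads, and the 6 genes with 100% private sequence hold between 103 and 2518 reads.

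Promoters of Pdgfc, Vegfc, Flt1 and Kdr are printed because these 4 genes stood at least 2-fold apart between the EB libraries, where 27.4% of all compared genes did, Flt1 in the direction opposite to the others. Each runs from 250 bases before to 50 bases after a start annotated by RefSeq on GRCm38.p6, 5′ to 3′ on the gene's strand. Chromosome positions given below with an entry number span the whole gene, and for Flt1 and Kdr this annotated start lies inside that span. Capitals mark exact matches to TATAAA (the TATA box), TGACGTCA (the cyclic AMP response element) or GGGCGG (the GC box bound by Sp1), on either strand.
Pdgfc, chr3:81036166-81036465, plus strand: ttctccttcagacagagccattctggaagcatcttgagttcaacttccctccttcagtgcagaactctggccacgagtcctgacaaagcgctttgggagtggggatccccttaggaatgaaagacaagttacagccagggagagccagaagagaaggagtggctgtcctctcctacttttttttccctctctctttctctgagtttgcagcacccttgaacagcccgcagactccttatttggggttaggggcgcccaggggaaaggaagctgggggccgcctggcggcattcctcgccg
Vegfc, chr8:54077282-54077581, plus strand: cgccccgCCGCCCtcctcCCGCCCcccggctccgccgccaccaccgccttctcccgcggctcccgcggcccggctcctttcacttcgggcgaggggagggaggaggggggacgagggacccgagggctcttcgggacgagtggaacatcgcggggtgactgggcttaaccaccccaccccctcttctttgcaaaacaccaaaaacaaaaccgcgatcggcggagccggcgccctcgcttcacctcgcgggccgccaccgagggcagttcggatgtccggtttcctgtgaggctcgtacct
Flt1, chr5:147725962-147726261, minus strand: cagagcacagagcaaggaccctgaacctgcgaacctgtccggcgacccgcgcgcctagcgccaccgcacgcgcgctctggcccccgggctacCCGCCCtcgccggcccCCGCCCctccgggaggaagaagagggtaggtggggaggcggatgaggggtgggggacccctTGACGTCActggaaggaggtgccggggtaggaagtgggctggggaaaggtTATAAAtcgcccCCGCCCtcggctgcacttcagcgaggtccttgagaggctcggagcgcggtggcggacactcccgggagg
Kdr, chr5:75978406-75978705, minus strand: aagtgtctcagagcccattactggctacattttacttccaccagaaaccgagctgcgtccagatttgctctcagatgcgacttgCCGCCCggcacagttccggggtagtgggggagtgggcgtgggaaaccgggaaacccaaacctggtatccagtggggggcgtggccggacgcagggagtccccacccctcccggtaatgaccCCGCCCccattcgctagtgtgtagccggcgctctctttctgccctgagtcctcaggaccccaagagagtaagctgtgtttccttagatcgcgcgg

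The 4 windows differed in these letters. Flt1 held TATAAA beginning 31 bases before the start, TGACGTCA beginning 81 bases before it, and 3 copies of GGGCGG. Of all 32851 promoters in the RefSeq set, 13.6% hold TATAAA, 1.79% TGACGTCA and 35.7% GGGCGG. Kdr and Vegfc held 2 GC boxes each and none of the other 2 motifs, and the Pdgfc window held none of the 3. On both strands CACGTG, the shorter ACGTG within it and AGATAA, the letters of E-boxes, hypoxia elements and GATA sites, had no match in these 4 windows. Of all promoters 7.15%, 19.6% and 11.2% hold them. GGAAGT, also searched, had 1 match each in Pdgfc, Flt1 and Kdr and 0 in Vegfc, and 23.8% of all promoters hold it. G and C made up 55% of the Pdgfc window, 70.3% for Vegfc, 70.7% for Flt1 and 60.7% for Kdr, against a median of 52.7% over the set. A match is a string of letters only, and the start used in these cells was not measured.

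Coding sequence was also searched for GGACT, the most common form of the m6A consensus, because the knocked-out enzyme acts on it. Whether these sites carry the mark was not measured here. They are shown for Pdgfc and Vegfc, the 2 ligands past 2-fold above WT in both KO libraries, as 25 bases of coding strand with the motif in capitals.
Pdgfc, chr3:81037482-81037506, motif from base 56 of 1038: caaagaacggGGACTcgggctgagt
Pdgfc, chr3:81174871-81174895, motif from base 380 of 1038: tgtggttctgGGACTgtgccaggaa
Pdgfc, chr3:81204359-81204383, motif from base 630 of 1038: gatggcaggtGGACTtggacagcct
Vegfc, chr8:54077871-54077895, motif from base 103 of 1248: cttcgagtcgGGACTgggcttctcg
Vegfc, chr8:54185990-54186014, motif from base 1180 of 1248: ttgtgatccaGGACTgtcctttagt

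Pdgfc carried 2.89 GGACT motifs per coding kilobase, and over the 9597 compared genes with a sequence the median was 1.08, with quartiles at 0.42 and 1.76. Vegfc carried 1.60, Flt1 1.75, Kdr 1.73 and Pdgfb 1.38 per kilobase, all between the median and the upper quartile. Pdgfa, with 591 coding bases, had 0, and 77.2% of the compared genes have at least 1. The 3′ untranslated regions held 3 motifs for Pdgfa and for Pdgfb, 1 for Pdgfc and for Vegfc, 5 for Flt1 and 2 for Kdr, and 58.7% of the compared genes have at least 1 there. Flt1, lower in KO EBs, and Kdr, higher there, each had 7 in their coding sequence.

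Among the ligands, Pdgfc set the KO libraries apart most. Pdgfc (NM_019971, chromosome 3, 81036416 to 81214040) encodes a chain secreted as a latent protein that becomes active after proteolysis. It stood at 670.2 in KO EBs, 17.1 in WT EBs, 702 in KO ESCs and 272 in WT ESCs, from 449, 11, 1316 and 350 reads. The 2 KO libraries lay close together and the WT EB library was far below the other 3.

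In KO EBs it was 39.1-fold higher than in WT EBs (21.6 to 78.9), a log2 fold of value + 1 above that of 99.9% of the 9670 compared genes. In KO ESCs it was 2.58-fold higher than in WT ESCs (2.29 to 2.91). WT EBs had 15.9-fold less than WT ESCs (8.77 to 32.1), while KO EBs and KO ESCs differed by 1.05-fold with an interval that spans equality (0.94 to 1.17, lower in KO EBs). On the log2 scale the EB change was −3.91 in WT and −0.07 in KO, a difference of 3.85. The 11 reads in WT EBs set the width of the intervals that involve WT EBs.

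Between the EB libraries Vegfc showed the next largest difference in the same direction. Vegfc (NM_009506, chromosome 8, 54077532 to 54186454) encodes the lymphatic growth factor that binds Flt4 and, once processed, Kdr. Its values were 187 in KO EBs, 32.7 in WT EBs, 358 in KO ESCs and 167 in WT ESCs, from 125, 21, 672 and 215 reads. KO stood above WT at both stages, 5.70-fold in EBs (3.57 to 9.53) and 2.14-fold in ESCs (1.83 to 2.51). Unlike Pdgfc, it was lower in EBs than in ESCs in both genotypes, 5.11-fold in WT (3.26 to 8.43) and 1.92-fold in KO (1.59 to 2.34).

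Per kilobase of coding sequence, Pdgfa was the most abundant of the ligands in every library. Pdgfa (NM_008808, chromosome 5, 138976014 to 139000792) encodes the chain that acts only through Pdgfra and that epithelia present to neighbouring mesenchyme. It stood at 572 in KO EBs, 301 in WT EBs, 561 in KO ESCs and 693 in WT ESCs, from 383, 193, 1052 and 890 reads, so that the WT EB library was again the lowest.

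Its genotype difference ran in opposite directions at the 2 stages. Pdgfa in KO EBs stood 1.90-fold above WT EBs (1.59 to 2.27) and 1.23-fold lower in KO ESCs, set against WT ESCs (1.13 to 1.35). With libraries scaled to equal totals the EB difference passed 2-fold. WT EBs had 2.30-fold less than WT ESCs (1.97 to 2.70), and KO EBs and KO ESCs differed by 1.02-fold (0.904 to 1.15, higher in KO EBs).

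Pdgfb had few footprints, and few reads could be assigned to Vegfb, most of whose coding bases are shared between its entries. Pdgfb (NM_011057, chromosome 15, 79995865 to 80024614), the chain by which endothelium recruits pericytes, stood at 37.3 in KO EBs, 31.2 in WT EBs, 23.5 in KO ESCs and 10.9 in WT ESCs, from 25, 20, 44 and 14 reads. Its mean of 25.7 was the nearest to the limit of 25. WT EBs stood 2.86-fold above WT ESCs (1.37 to 6.12) and KO ESCs 2.15-fold above WT ESCs (1.16 to 4.26), and KO EBs and WT EBs differed by 1.20-fold with an interval of 0.638 to 2.27. Vegfb (chromosome 19, 6982472 to 6987651), a ligand of Flt1 alone among the VEGF receptors, had 6 reads in KO EBs, 2 in WT EBs, 4 in KO ESCs and 1 in WT ESCs, and every interval between its libraries spanned equality.

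**Figure D2:**
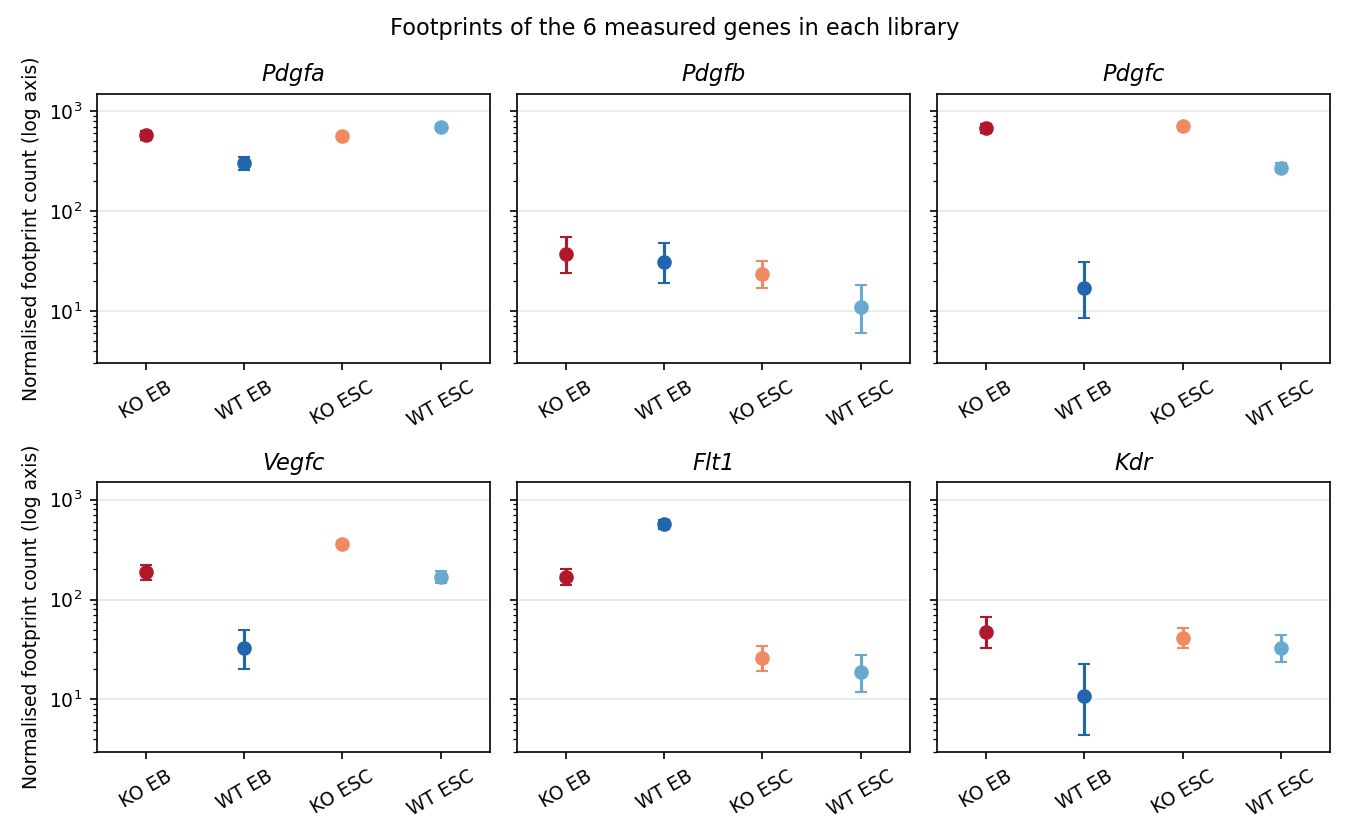
Normalised footprint count (log axis) of the 6 measured genes in KO EBs, WT EBs, KO ESCs and WT ESCs; points are single libraries and bars are 95% exact Poisson intervals that cover counting error only. Pdgfc at 17.1, Vegfc at 32.7 and Kdr at 10.9 are lowest in WT EBs, where Flt1 at 564 is highest.

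The VEGF receptors differed in opposite directions between the EB libraries. Flt1 (NM_010228, chromosome 5, 147561604 to 147726438) encodes VEGF receptor 1, which binds VEGF tightly, signals weakly and is also made as a soluble decoy. Its counts were 169 in KO EBs, 564 in WT EBs, 26.1 in KO ESCs and 18.7 in WT ESCs, from 113, 362, 49 and 24 reads. Both EB libraries lay above both ESC libraries, by 30.2-fold in WT (19.98 to 47.8) and 6.45-fold in KO (4.58 to 9.22). The KO EB level lay 3.34-fold below that of WT EBs (2.70 to 4.17). KO ESCs and WT ESCs differed by 1.40-fold with an interval of 0.842 to 2.38. On the log2 scale its EB change was 2.64 in KO and 4.84 in WT, a difference of −2.20.

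Kdr (NM_010612, chromosome 5, 75932827 to 75979072) encodes VEGF receptor 2, an early mark of blood and endothelial precursors. It stood at 47.8 in KO EBs, 10.9 in WT EBs, 41.1 in KO ESCs and 32.7 in WT ESCs, from 32, 7, 77 and 42 reads. The WT EB library alone lay apart: KO EBs were 4.38-fold higher (1.90 to 11.8) and WT EBs were 2.996-fold lower than WT ESCs (1.33 to 7.90). The intervals of KO ESCs against WT ESCs (0.852 to 1.88) and of KO EBs against KO ESCs (0.745 to 1.78) spanned equality. These calls rest on 7 reads in WT EBs.

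**Figure D3:**
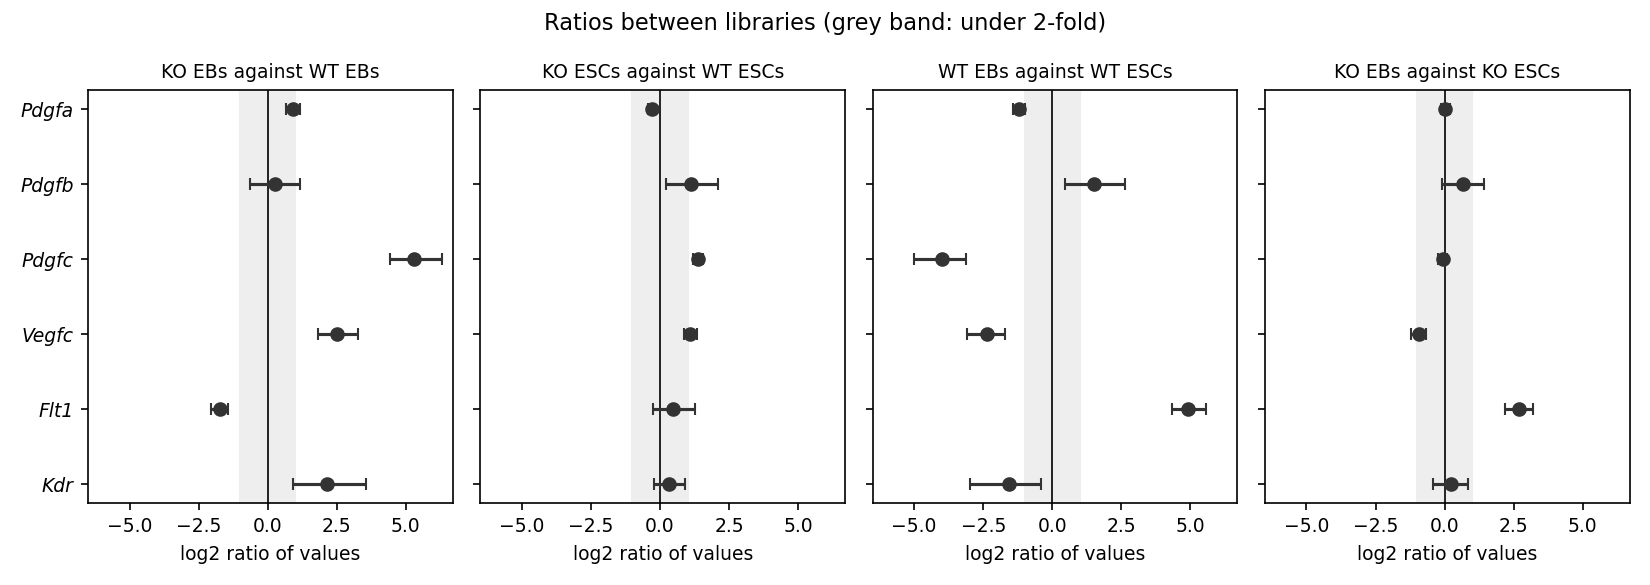
Log2 ratio of normalised values for the 6 measured genes in 4 comparisons of 2 libraries; bars are 95% exact intervals of the ratio from read counts and the grey band is under 2-fold. Pdgfc (39.1-fold), Vegfc (5.70-fold) and Kdr (4.38-fold) lie right of the band in KO EBs against WT EBs and Flt1 lies left of it (3.34-fold lower).

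Counted together, 3 of the 6 measured genes (Pdgfc, Vegfc and Kdr) were at least 2-fold higher in KO EBs than in WT EBs and 1 (Flt1) at least 2-fold lower, where 15.2% and 12.2% of all 9670 compared genes were, or 27.4% in either direction. Their median log2 fold was 1.48, against −0.07 over all genes. In KO ESCs against WT ESCs 3 genes (Pdgfb, Pdgfc and Vegfc) were at least 2-fold higher and 0 lower, where 10.6% and 4.42% of all genes were, or 15% in either direction, with a median of 0.75 and −0.00 over all genes. In WT EBs against WT ESCs all 6 measured genes passed 2-fold, 2 higher (Pdgfb and Flt1) and 4 lower, where 11% and 8.25% of all genes were, or 19.2% in either direction, with medians of −1.35 and −0.02. In KO EBs against KO ESCs only Flt1 passed it, 1 of 6 higher and 0 lower, where 9.31% and 6.65% of all genes were, or 16% in either direction, with medians of 0.12 and −0.08. The EB change of KO exceeded that of WT by 1 or more on the log2 scale for Pdgfa, Pdgfc, Vegfc and Kdr, 4 of 6, and fell short of it by as much for Flt1, where 11.4% and 12.5% of all genes did. These comparisons share libraries and were not independent, and a low gene enters through its highest library, so the counts are descriptions.

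A test was possible only by setting the 2 libraries of a stage or genotype against the other 2. The libraries of a side then differ in the other factor and are not replicates. With genotype and stage both fitted, the only spread left is the difference of the EB change between the genotypes. The p-values set each fold against that spread, partly pooled over genes, so a gene whose EB change differs between the genotypes is counted as noisy. Over both genotypes edgeR's quasi-likelihood test called 25 of 9670 genes between EBs and ESCs (0.259%) and 0 of the 6 measured genes, with 1140 genes at an unadjusted p under 0.05, Flt1 and Vegfc among them. Flt1 had a log2 fold of 3.80 with an adjusted p of 0.0866 by edgeR, and 3.82 ± 0.618 (SE) with an adjusted p of 1.8e-07 by DESeq2, which called 375 genes (3.95%). Flt1 was higher in EBs in both genotypes. With only the stage term and without the KO EB library, edgeR's adjusted p was 5.55e-06 for Flt1, 0.000106 for Pdgfc and 0.0129 for Vegfc. Without the WT EB library it was 0.0478 for Flt1 and none of the other 5 was called, and without either ESC library none was called, so that edgeR's adjusted p of Flt1 reached 0.9999 without WT ESCs.

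Between KO and WT over both stages edgeR called 0 of 9670 genes (0%), with 1556 at an unadjusted p under 0.05, and DESeq2 called 322 (3.33%), none of them among the 6. Pdgfc and Vegfc were among the 1556. The adjusted p of Pdgfc was 0.22 by edgeR, with a log2 fold of 3.02, and 0.255 by DESeq2, although KO was higher at both stages. Vegfc, also higher in KO at both stages, had a log2 fold of 1.76 with an adjusted p of 0.203 by edgeR and 0.0539 by DESeq2. With every gene of at least 1 read tested, edgeR called Pdgfc with an adjusted p of 0.0318, the lowest of its alternatives, the highest being 0.829 without the KO EB library.

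Levels were compared between genes per kilobase of coding sequence. In KO EBs the order was Pdgfa at 967 per kilobase, Pdgfc at 646, Vegfc at 149.5, Pdgfb at 51.4, Flt1 at 42.1 and Kdr at 11.8, and the counting intervals of Pdgfb and Flt1 overlapped. In WT EBs it was Pdgfa at 509, Flt1 at 141, Pdgfb at 42.9, Vegfc at 26.2, Pdgfc at 16.5 and Kdr at 2.70, and the intervals of Pdgfb, Vegfc and Pdgfc overlapped with one another. By value Pdgfc came second in KO EBs and next to last in WT EBs. In KO ESCs the values were 949.5 for Pdgfa, 676 for Pdgfc, 287 for Vegfc, 32.3 for Pdgfb, 10.2 for Kdr and 6.53 for Flt1. In WT ESCs they were 1172 for Pdgfa, 262 for Pdgfc, 134 for Vegfc, 15.0 for Pdgfb, 8.10 for Kdr and 4.67 for Flt1. Kdr overlapped with Flt1 in both ESC libraries and with Pdgfb in WT ESCs. Against the median compared gene, at 217 per kilobase in KO EBs, 231 in WT EBs, 232 in KO ESCs and 216 in WT ESCs, Pdgfa was higher in all 4 libraries and Pdgfb, Flt1 and Kdr were lower in all 4.

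As a share of the summed PDGF ligand level per kilobase, Pdgfc made up 38.8% in KO EBs, 2.91% in WT EBs, 40.8% in KO ESCs and 18.1% in WT ESCs. Pdgfa made up 58.1%, 89.5%, 57.3% and 80.9% in the same libraries. Among the VEGF receptors, with Flt4 (VEGF receptor 3, the Vegfc receptor of lymphatic endothelium) added, Flt1 held 33.1% in KO EBs and 80.4% in WT EBs, Flt4 57.6% and 18.03%, and Kdr 9.29% and 1.54%. In ESCs Flt4 held 48.8% in KO and 51.4% in WT, and Kdr 31.2% and 30.8%.

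**Figure D4:**
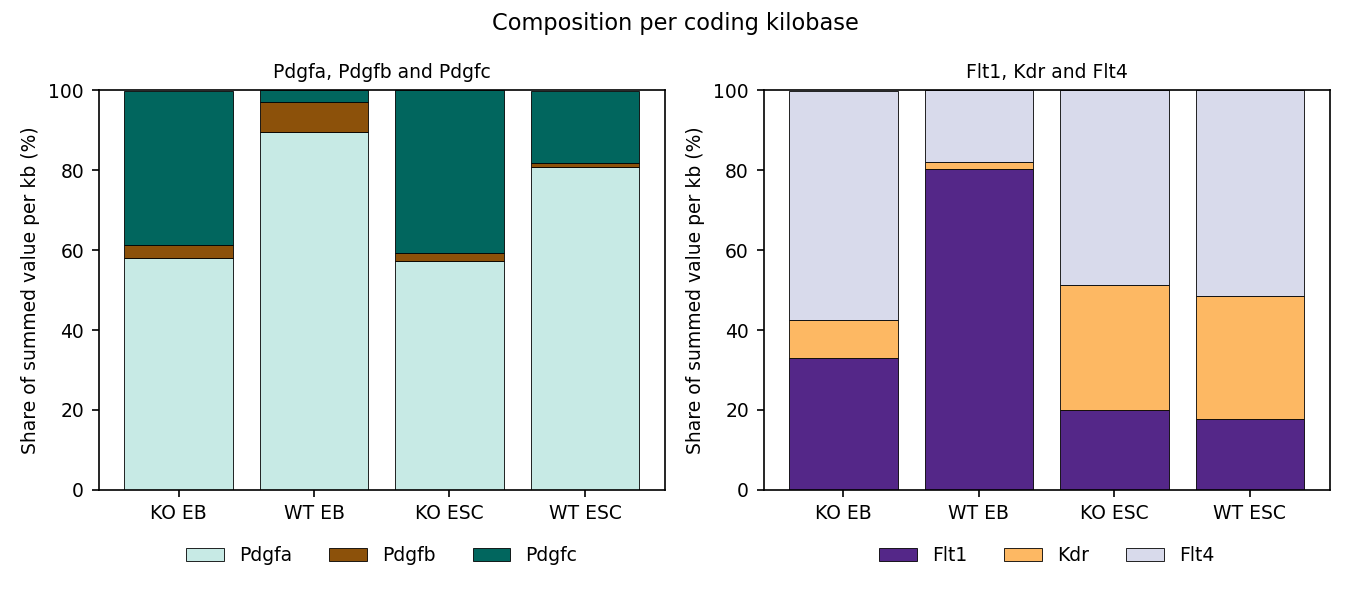
Share (percent) of the summed normalised count per coding kilobase held by the PDGF ligands Pdgfa, Pdgfb and Pdgfc (left) and the VEGF receptors Flt1, Kdr and Flt4 (right) in KO EBs, WT EBs, KO ESCs and WT ESCs. Pdgfc takes 38.8% in KO EBs and 2.91% in WT EBs, and Flt1 takes 33.1% and 80.4%.

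Of 9 further family members and associated genes, 5 were compared. In KO EBs against WT EBs 3 of these were at least 2-fold higher and 0 lower, where 15.2% and 12.2% of all genes were. Their median log2 fold was 1.21 against −0.07 for all genes. Pdgfrl, a PDGF receptor-like protein without a kinase, stood at 282 in KO EBs against 40.5 in WT EBs, 6.96-fold higher (4.61 to 10.9). The co-receptor Nrp1, neuropilin 1, stood at 80.6 in KO EBs against 28.1 in WT EBs (2.87-fold higher, 1.66 to 5.21), and Flt4 at 300.03 in KO EBs against 129 in WT EBs (2.32-fold higher, 1.79 to 3.03). Vegfd, the closest relative of Vegfc, was 1.97-fold lower in KO EBs (1.08 to 3.71). Of the same 5 genes 0 were 2-fold apart between KO ESCs and WT ESCs, where 15% of all genes were.

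Of 8 compared genes that process or store the ligands, 3 were at least 2-fold higher and 1 lower in KO EBs, with a median of 0.83 against WT EBs. The lower one was Plat, tissue plasminogen activator, a protease known to activate PDGF-C, at 131 in KO EBs against 656 in WT EBs (4.995-fold lower, 3.96 to 6.36), while Plau, urokinase, stood at 80.6 in KO EBs against 12.5 in WT EBs (6.46-fold higher, 3.06 to 15.7). Lrp1, an endocytic receptor that partners PDGF receptors, was 3.68-fold higher in KO EBs (3.41 to 3.97). In ESCs Plat stood at 26.7 in KO and 18.7 in WT. In KO EBs against KO ESCs 5 of the 8 were at least 2-fold higher and 0 lower, where 9.31% and 6.65% of all genes were. The all-gene shares in KO EBs against WT EBs were 15.2% higher and 12.2% lower.

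Of 25 compared cytoplasmic signalling genes downstream of the receptors, 6 stood at least 2-fold below and 2 above WT EBs in the KO EB library. Over all genes 12.2% were lower and 15.2% higher, and the medians were −0.45 for the list and −0.07 for all genes. Lowest were Pik3r1, a regulatory subunit of PI3-kinase, at 25.4 in KO EBs against 104 in WT EBs (4.12-fold lower, 2.39 to 7.48), and Spry1, a feedback inhibitor of receptor signalling (3.82-fold lower, 2.51 to 5.97). Highest were the phosphatase gene Ptprj, with a log2 fold of 1.92, and Spry4, another Sprouty inhibitor, at 809 in KO EBs against 385 in WT EBs (2.10-fold higher, 1.805 to 2.45). In KO ESCs against WT ESCs 1 of the 25 was at least 2-fold higher and 1 lower, where 10.6% and 4.42% of all genes were.

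Early response genes, which growth factor receptors switch on through ERK, stood at least 2-fold higher for 8 of 13 in KO EBs against KO ESCs and for 8 of 13 in WT EBs against WT ESCs. None of the 13 was 2-fold lower in either, and the medians were 1.23 in KO and 1.52 in WT. At least 2-fold higher over all genes were 9.31% in KO and 11% in WT, and 6.65% and 8.25% were lower. The MEK inhibitor present in ESC medium and absent from EB medium acts on the same cascade, and its part was not tested. Egr1, an immediate early transcription factor, was 53.9-fold higher in KO EBs, set against KO ESCs (26.7 to 127), and Dusp4, an ERK phosphatase, was 22.1-fold higher in WT EBs than in WT ESCs (17.3 to 28.6). Between KO EBs and WT EBs 2 of the 13 were at least 2-fold higher and 1 lower, where 15.2% and 12.2% of all genes were.

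Of 10 compared genes of angiogenesis and the VEGF receptor response, 3 were at least 2-fold higher and 2 lower in KO EBs, with a median of 0.14 against WT EBs. Notch1, the receptor that VEGF signalling engages in sprouting vessels, and the endothelial nitric oxide synthase gene Nos3 were the highest, with log2 folds of 1.42 and 1.18. Epas1, a hypoxia-inducible factor, stood at 482 in KO EBs against 2143 in WT EBs (4.44-fold lower, 3.93 to 5.03), and Hif1a had a log2 fold of −1.23. Among 19 other receptor tyrosine kinases 6 were at least 2-fold higher and 2 lower in KO EBs, with a median of 0.61. For both lists the shares over all genes were 15.2% higher and 12.2% lower. The collagen receptor Ddr2 stood at 157 in KO EBs against 20.3 in WT EBs (7.74-fold higher, 4.33 to 15.0). Between the genotypes 27.4% of all genes stood at least 2-fold apart in EBs and 15% in ESCs. Of 7 compared neighbours of Pdgfra and Kdr on chromosome 5, 0 stood 2-fold apart between the genotypes at either stage. Lnx1, an E3 ubiquitin ligase gene of the same list whose mean was under the limit of 25, named after its values were seen, stood at 5.97 in KO EBs against 67.02 in WT EBs (11.2-fold lower, 4.08 to 43.1) and at 2.13 in KO ESCs against 23.4 in WT ESCs (10.9-fold lower, 3.86 to 42.8), with 4 reads in each KO library. Its 5 entries have 392 private bases in all. Kit, the receptor gene between Pdgfra and Kdr, had 2 entries and 0 reads.

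Some marker lists of other cell types differed between the groups as well. Against WT EBs, 15.2% of all genes were at least 2-fold higher in KO EBs and 12.2% lower. Of 10 compared fibroblast and mesenchyme genes, 10 were at least 2-fold higher in KO EBs than in WT EBs, with a summed level over the 15 listed genes of 11792 in KO EBs, 1562 in WT EBs, 3705 in KO ESCs and 732 in WT ESCs. Of 17 compared genes of primitive, visceral and parietal endoderm, 15 lay at least 2-fold below WT EBs in the KO EB library, with summed levels of 17794 in KO EBs, 116056 in WT EBs, 8667 in KO ESCs and 10441 in WT ESCs. Among trophoblast genes 2 of 7 were at least 2-fold higher and 0 lower in KO EBs, with sums of 4621 in KO EBs, 5785 in WT EBs, 1236 in KO ESCs and 383 in WT ESCs. The endoderm and trophoblast sums had their highest value in WT EBs, as Flt1 did, and the mesenchyme sum was highest in KO EBs. In the trophoblast sum of WT EBs, however, the keratins Krt18 and Krt8 held 3597 and 1334, against 2005 and 800 in KO EBs. Every other compared trophoblast gene was higher in KO EBs than in WT EBs, Ascl2 (519 against 70.1) and Hand1 (299 against 40.5) the most. The endothelium sum was also highest in WT EBs, at 887, but Sox7 alone held 357 of it. In KO EBs Sox7 held 7.46 of 809. The part of these cell types in the PDGF and VEGF results was not tested.

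The 15 listed endothelial markers summed to 809 in KO EBs, 887 in WT EBs, 606 in KO ESCs and 415 in WT ESCs. Of 7 compared genes 2 were at least 2-fold higher and 1 lower in KO EBs, set against WT EBs. Over all genes 15.2% were higher and 12.2% lower. Pecam1, Emcn, Eng and Egfl7 had 0 reads in all 4 libraries, and of 41 listed genes without a read over all lists 38 have 2 or more entries. Cdh5, the endothelial cadherin, was named after its values were seen, and its mean was under the limit of 25. It stood at 13.4 in KO EBs, 24.9 in WT EBs, 3.73 in KO ESCs and 0.778 in WT ESCs. These values came from 9, 16, 7 and 1 reads. Sox7 and Sox18, transcription factors of endothelium, split. Sox7, which endoderm also makes, stood at 7.46 in KO EBs against 357 in WT EBs, from 5 and 229 reads. Sox18 stood at 74.6 in KO EBs against 4.68 in WT EBs, from 50 and 3 reads. Pericyte and smooth muscle genes summed to 5711 in KO EBs, 4370.1 in WT EBs, 2968 in KO ESCs and 3547 in WT ESCs, with 2 of 6 higher and 2 lower in KO EBs. Blood genes summed to at most 146, with Runx1, Hbb-bh1, Hba-a1 and Ptprc at 0 throughout. Runx1 has 4 entries and 0 private bases, so its zero is no measure of its footprints. Ptprc has 3 entries with 417 private bases in all. Hbb-bh1 and Hba-a1 have 1 entry each, but further copies of their sequence, whose reads could not be assigned, were not searched for. Naive pluripotency genes summed to 25665 in KO EBs, 16123 in WT EBs, 22664 in KO ESCs and 33607 in WT ESCs. That sum was lowest in WT EBs.

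The genes most like each member were taken as those with the smallest distance between centred log2 values over the 4 libraries, among 7347 named genes with a mean of at least 100. Nearest to Pdgfc was Prrt3, with 451 in KO EBs, 12.5 in WT EBs, 626 in KO ESCs and 205 in WT ESCs at a distance of 0.291, and then Tnfrsf8 and Hhip, the Hedgehog-binding inhibitor, both at about 0.81. Nearest to Flt1 was Plat at 0.416, followed by Frmpd1 and Nrk. Nearest to Kdr were the neuronal splicing factor gene Nova2 at 0.136, the receptor tyrosine kinase gene Ror2 and Anxa1. Vegfc was nearest to Mdfic, Ly6k and Tns1, at distances between 0.332 and 0.389. Pdgfa was nearest to Icam1, the adhesion receptor, at 0.114, and Pdgfb to Cep170b at 0.135. With 4 libraries these distances describe the profiles and no more.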

How the data were processed

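Ribosome footprints were counted by the authors per RefSeq coding sequence, and the deposited table holds them as a normalised signal for 1 library of each group. The submitters' processing notes name DESeq, HTSeq 0.6.0, TopHat2 2.0.10, Bowtie and CASAVA 1.8.2, with mm10 as the build. Their settings, the annotation version and whether strand was used are not stated in the sources used here. Dividing each column by its smallest step gave whole numbers within 0.01 for 100% of values, so reads were recovered. Columns were matched to libraries by name, with 0 unmatched. A RefSeq table of GRCm38.p6, the same assembly as mm10, named 27083 of 27442 entries. Genes held between 27.9% and 33.4% of the table's reads and its summary entries, which name no gene, entered neither the totals nor the fits.

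Genes with a mean of at least 25 were compared on log2(value + 1) and counted at 2-fold. The design allows no test between 2 libraries. Read ratios have 95% conditional exact binomial (Clopper-Pearson) intervals. The signal had been planned for a count test only if whole reads could be recovered, and edgeR 4.0.16 (quasi-likelihood, TMM, genotype and stage terms, Benjamini-Hochberg adjustment) and DESeq2 1.42.0 were run on them. The fold counting and the edgeR test were run on simulated data with known folds. The edgeR simulation gave no gene an EB change that differed between the genotypes, so it does not cover such genes here. Coding sequence, private bases and 28-base windows came from the GRCm38.p6 annotation, which is later than the authors' table. Promoters of 7 of the 9 genes were found in the RefSeq promoter set. In each list up to 2 highest and 2 lowest compared genes per comparison could be named. Members and lists were chosen with earlier results of these data known. Some listed genes are not reported here by name.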

Additional observations from a re-analysis of the deposited data

Results flagged for a closer look

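Pdgfa was set aside for a closer look because its genotype difference ran in opposite directions at the 2 stages, with counting intervals that left out equality at both. Its log2 fold of value + 1 was 0.92 in KO EBs against WT EBs and −0.30 in KO ESCs against WT ESCs. The EB fold lay above the upper quartile of all genes, 0.57, and was 1.04 with equal library totals. The ESC fold lay within the quartiles of all genes, −0.37 and 0.46, and was −0.18 with equal totals. Each direction rests on 1 library a side, and the difference between the stages was not tested.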

How the results depend on the processing

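Across pseudocounts of 0.5 and 5, equal library totals and TMM factors, 120 of 120 recomputed log2 folds of the 6 genes kept their sign, moved by at most 0.304 and crossed 2-fold in 2 cases: Pdgfa in KO EBs against WT EBs reached 1.04 with equal totals, and Pdgfb in KO ESCs against WT ESCs came to 0.84 with a pseudocount of 5. Equal totals moved the median of all genes by 0.117 in KO EBs against WT EBs and by 0.125 in KO ESCs against WT ESCs. The count of genes at least 2-fold apart in KO EBs against KO ESCs was 1, and became 2 with no filter and 3 with a limit of 1.5-fold, by construction. All other counts of these genes stayed within 1.5 times under every listed alternative. Genes called between EBs and ESCs, 25 by edgeR, numbered 375 by DESeq2, 0 with only the stage term, 338 with no filter and between 0 and 425 when 1 library was left out (425 without KO EBs, 170 without WT EBs, 0 without either ESC library). Genes called between KO and WT, 0 by edgeR, numbered 322 by DESeq2 and 277 with no filter, and stayed at 0 without any 1 library. The cause of these shifts was not tested. With 1 library left out, the lone library was taken to vary like the other side. No paired analysis was possible because the labels give no replicate numbers and each group has 1 library. Depth limits Kdr, Pdgfb, Pdgfc and Vegfc in WT EBs, with 7, 20, 11 and 21 reads, and Pdgfb in WT ESCs, with 14 reads.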
